A study of Mus musculus with 4 samples.

Results

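The visual cycle and pigment epithelium genes described here are 9 genes chosen by name: Rlbp1, Rdh5, Rgr, Rpe65, Lrat, Rdh10, Rdh11, Rdh12 and Ttr. All 9 were present among the 13452 Ensembl genes of the deposited isoform table, with 24 of the 40703 isoforms of those genes. The table was made from nanopore reads of single-cell cDNA of mouse retina and gives counts for 6 cell classes: amacrine cells, bipolar cells, cones, Müller glia, rods and retinal ganglion cells. The retinas were from male wild-type C57BL6/J mice, and 4 libraries were made: 2 without enrichment (1 of them from postnatal day 40, the other with no age in the labels), 1 labelled CD73 enrichment from postnatal week 8 and 1 labelled CD90.2 enrichment from postnatal month 4. CD73 marks the surface of photoreceptors, and CD90.2 that of ganglion cells and other neurons. The labels' protocol describes magnetic columns that removed CD73-positive cells and kept CD90.2-positive cells, while the design text of the series speaks of FACS. The class columns carry no library, age or enrichment, so each class is 1 pooled sample, no test between classes was possible, and every interval below is for counting error only.

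The visual cycle restores the light-sensitive form of the opsin chromophore. After light converts the bound cis-retinal to the all-trans form, retinol dehydrogenases in photoreceptors reduce it to all-trans-retinol. In the retinal pigment epithelium, the pigmented cell layer behind the photoreceptors, LRAT esterifies retinol, RPE65 turns the ester into cis-retinol, and RDH5 oxidises this to cis-retinal, which is carried by the retinaldehyde-binding protein CRALBP, the product of Rlbp1. Müller glia, the radial glia of the retina, also contain CRALBP and the retinal-binding opsin RGR. The 6 columns include none for pigment epithelium.

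The columns differed in depth, from 3509890 counts in ganglion cells and 6133094 in Müller glia to 55437340 in rods. A count of 0 therefore allows a level of up to 3 counts, which is 0.855 counts scaled to a column total of 1000000 (CPM) in ganglion cells, 0.489 CPM in Müller glia and 0.0541 CPM in rods. Marker lists of 6 genes for each of the 6 classes were highest in the column of their own class for every listed gene. Because a column sums many cells, more expressing cells and more RNA per cell cannot be told apart.

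Most of these genes were concentrated in 1 column. The highest CPM was in Müller glia for 7 of the 9 genes (Rlbp1, Rdh10, Rdh5, Rgr, Rpe65, Lrat and Ttr), against 19.4% of the 13393 Ensembl genes with at least 10 counts. The other 2, Rdh11 and Rdh12, were highest in rods, as were 23.6% of those genes. Each of the 7 had at least 80% of its CPM, summed over the 6 columns, in Müller glia, a share that 5.57% of the genes reached there and 15.5% in any column. The median share in the highest class was 97.4% over the 9 genes and 43.7% over all 13393. In the ganglion cell column, 8 of the 9 had 0 counts and Rdh11 had 1, while 30.0% of the 9868 genes with at least 100 counts in all had 0 counts there.

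**Figure D1:**
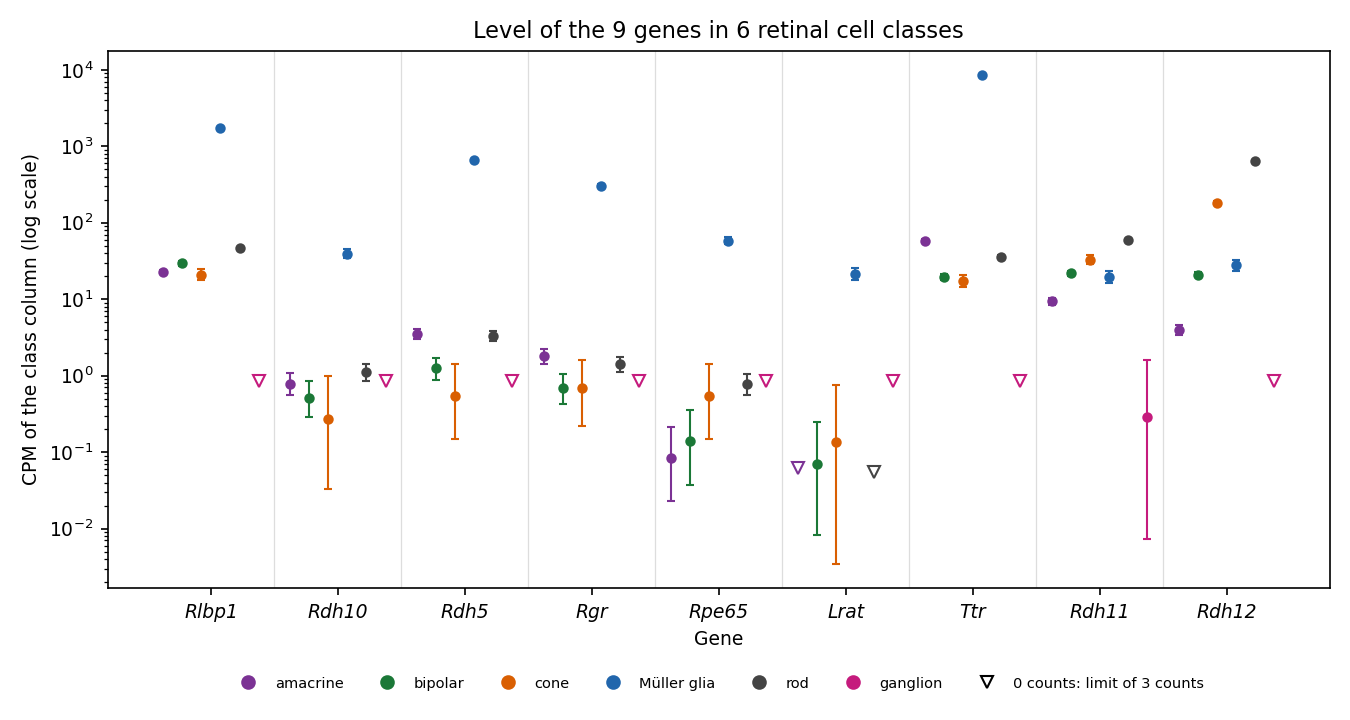
Level of each of the 9 genes in each cell class, in CPM on a log scale, with exact Poisson 95% intervals. Open triangles mark the limit of 3 counts where a class had 0 counts. By the plotted levels, without their intervals, Müller glia lie at least 35.3-fold above the next highest class with counts for 7 genes. For Lrat, the limit of 3 counts in ganglion cells allows a smaller difference. Rods lie above the others for Rdh11 and Rdh12.

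Rlbp1 (ENSMUSG00000039194.16, chromosome 7, 79374870 to 79387048 on GRCm38) had 1736 CPM in Müller glia (95% interval 1703 to 1769), 46.1 in rods, 29.4 in bipolar cells, 22.8 in amacrine cells, 20.9 in cones and 0 in ganglion cells. The Müller glia level was 37.7-fold that of rods (36.1 to 39.3), the next highest class, and amacrine cells and cones had overlapping intervals. Rdh10, a retinol dehydrogenase of chromosome 1 that also serves retinoic acid synthesis, had 242 counts and 39.5 CPM in Müller glia (34.6 to 44.8), and 1.12 CPM in rods, 0.788 in amacrine cells, 0.517 in bipolar cells and 0.274 in cones, with 0 counts in ganglion cells. Its Müller glia level was 35.3-fold that of rods (26.6 to 47.4), and no neighbouring pair below Müller glia was separated by its intervals. These 2 genes were nearly alike in their distribution: the share of summed CPM in Müller glia was 93.6% for both.

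The other 5 genes highest in Müller glia had 97.4% to 99.0% of their summed CPM there. The intervals of this share for Rpe65 (92.8 to 98.8%) and Lrat (89.0 to 99.95%) overlapped those of Rlbp1 and Rdh10. Rdh5 (chromosome 10, 128913593 to 128922888) had 654 CPM there (633 to 674), 3.52 in amacrine cells, 3.30 in rods, 1.24 in bipolar cells and 0.547 in cones, a 185-fold difference from amacrine cells (159 to 218). Rgr (chromosome 14, 37034909 to 37048964) had 304 CPM in Müller glia (290.4 to 318), 1.78 in amacrine cells, 1.41 in rods, 0.689 in bipolar cells and 0.684 in cones, a 171-fold difference from amacrine cells (137 to 214). For both genes amacrine cells and rods were not separated by their intervals.

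Rpe65, the isomerase of the cycle (chromosome 3, 159599175 to 159625321), had 358 counts and 58.4 CPM in Müller glia (52.5 to 64.7), and 43 counts in rods, 0.776 CPM. Amacrine cells, bipolar cells and cones had 4 counts of Rpe65 each. Its Müller glia level was 75.3-fold that of rods (54.7 to 106). Lrat (chromosome 3, 82892579 to 82903973) had 131 counts and 21.4 CPM in Müller glia (17.9 to 25.3), 2 counts in bipolar cells, 1 in cones and 0 in amacrine cells, rods and ganglion cells. The Lrat level in Müller glia was 395-fold the limit of 3 counts in rods, a value that leaves out the counting error of the Müller glia level.

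Ttr, which encodes transthyretin, a carrier of thyroxine and of the retinol-binding protein complex, lies on chromosome 18. It had 51779 counts in Müller glia, 8443 CPM (8370 to 8516), 58.3 CPM in amacrine cells (56.2 to 60.5), 36.0 in rods (34.5 to 37.6), 19.6 in bipolar cells (18.1 to 21.3), 17.2 in cones (14.4 to 20.5) and 0 in ganglion cells. Müller glia exceeded amacrine cells 145-fold (139 to 150.4). Bipolar cells and cones did not differ beyond their intervals, while the other neighbouring columns with counts did. Ttr also marks choroid plexus and ciliary epithelium: of 4 other listed markers of these found in the table, Folr1 was highest in Müller glia (69.9 CPM), Otx2 in bipolar cells, and Aqp1 and Clic6 in rods. What such cells contribute to the Ttr level was not tested.

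The level outside the Müller glia column differed among these genes. In rods, Rlbp1 stood at 2.66% and Rdh10 at 2.83% of its Müller glia level. The same value for 6 Müller glia markers (Glul, Slc1a3, Aqp4, Apoe, Kcnj10 and Sox9) ranged from 1.47% for Aqp4 to 5.72% for Glul. Their sum stood at 2.94%, and most of it was Apoe, with 39298 of 42375 CPM in Müller glia. Rdh5 stood at 0.505%, Rgr at 0.463% and Ttr at 0.427% in rods, Rpe65 at 1.33%, and Lrat at 0. Rdh5, Rgr and Ttr were also alike in amacrine cells, at 0.539%, 0.586% and 0.691%. There the single Müller glia markers ranged from 0 for Kcnj10, with 39 counts in Müller glia, and 1.16% for Aqp4 to 9.52% for Glul. Their distributions over the 6 classes differed by 0.109% of the summed CPM between Rgr and Ttr and by 0.220% between Rdh5 and Rgr, and by 4.95% between Rgr and Rlbp1.

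Markers of pigment epithelium were in the same column. Of 6 marker genes that are not among the 9 (Pmel, Mlana, Tyr, Tyrp1, Dct and Best1), 5 were highest in Müller glia, and their sum was 101 CPM there (93.1 to 109) against 0.884 CPM in rods to 2.85 CPM in ganglion cells. Mlana had 51.4 CPM and Dct 34.9 CPM in Müller glia, and Best1 had 0 counts there and 2.16 CPM in amacrine cells. What pigment epithelium RNA contributes to the Müller glia levels of Rlbp1, Rdh10, Rdh5, Rgr, Rpe65, Lrat and Ttr was not tested. Other cell types without a column of their own were divided. The Müller glia column was highest for 6 of 6 microglial markers (1623 CPM in sum, with 697 in rods). It was also highest for 3 of 3 endothelial markers found (28.9 CPM) and 3 of 4 astrocyte markers found (112 CPM). The pericyte sum was highest in rods (2571 CPM, with 1406 in Müller glia), although 3 of 4 pericyte markers found were highest in Müller glia (Rgs5, Kcnj8 and Abcc9). Nearly all of the rod sum was the fourth marker, Vtn, with 2570 CPM in rods, 1773 in cones and 1149 in Müller glia. The horizontal cell sum was highest in amacrine cells (346 CPM, with 12.1 in Müller glia), where 273 CPM of it was Tfap2b, also an amacrine marker. Of the 4 horizontal cell markers found, Tfap2b and Calb1 were highest in amacrine cells, Onecut1 in bipolar cells and Onecut2 in cones.

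**Figure D2:**
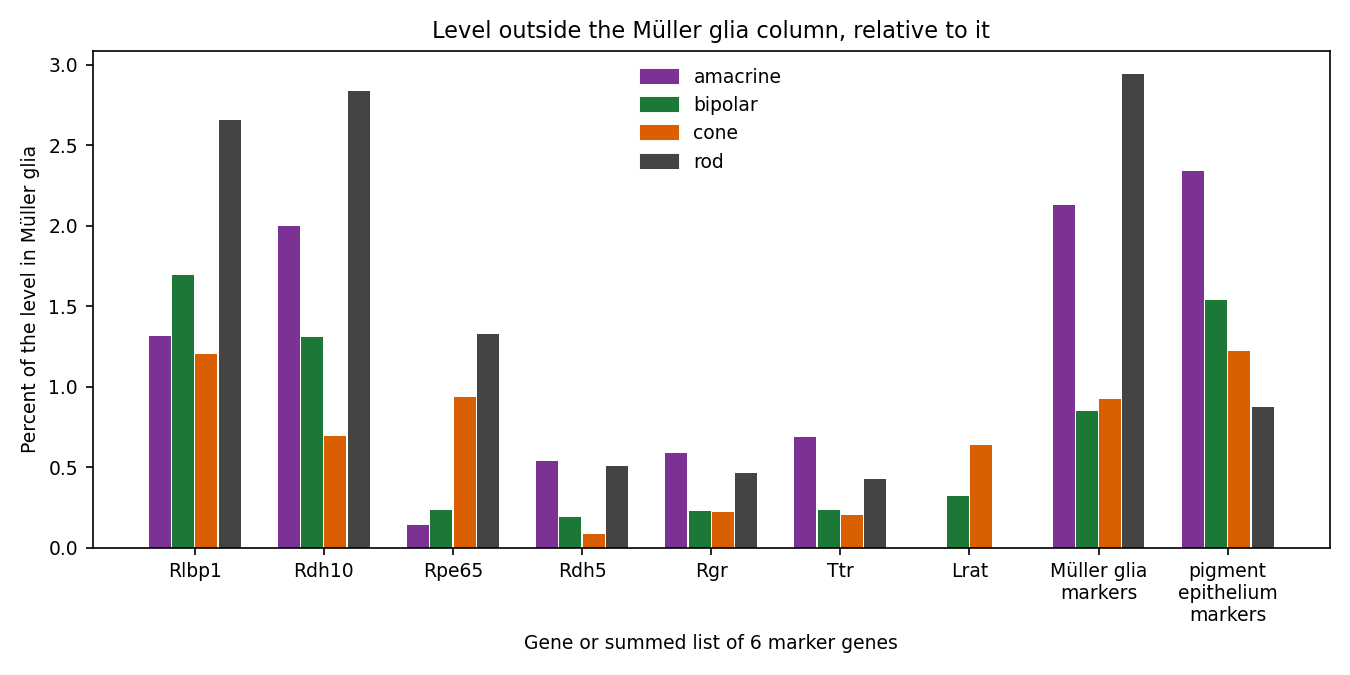
Level in amacrine cells, bipolar cells, cones and rods as a percentage of the level in Müller glia, for the 7 genes highest in Müller glia and for the summed CPM of 2 lists of 6 markers. The rod bars of Rlbp1 (2.66%) and Rdh10 (2.83%) lie within the range of the single Müller glia markers (1.47% to 5.72%), whose summed bar (2.94%) is mostly Apoe, and those of Rdh5, Rgr and Ttr are between 0.427% and 0.505%. Most of the amacrine bar of the pigment epithelium markers is Best1.

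Rdh12 and Rdh11, which reduce all-trans-retinal in photoreceptors, neighbour each other on chromosome 12 with their 5′ ends facing and 16.6 kb between them. Rdh12 (79208914 to 79222665) had 36028 counts in rods, 650 CPM (643 to 657), 184 CPM in cones (174 to 194), 27.7 in Müller glia (23.7 to 32.2), 21.0 in bipolar cells (19.4 to 22.7), 3.96 in amacrine cells (3.42 to 4.56) and 0 in ganglion cells. Rods exceeded cones 3.54-fold (3.35 to 3.74), and the share of summed CPM in rods was 73.3%. The 6 rod markers were at 6.85% of their rod level in Müller glia and 1.89% in bipolar cells, and Rdh12 was at 4.27% and 3.23%.

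Rdh11 (79174337 to 79192293) was the most evenly spread of the 9. Its level was 58.9 CPM in rods (56.9 to 61.0), 33.0 in cones (28.9 to 37.4), 21.8 in bipolar cells (20.1 to 23.6), 19.7 in Müller glia (16.4 to 23.6), 9.35 in amacrine cells (8.50 to 10.3) and 0.285 in ganglion cells, from 1 count. Rods held 41.2% of the summed CPM and exceeded cones 1.79-fold (1.57 to 2.05). The intervals of bipolar cells and Müller glia overlapped.

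Other genes of retinoid handling divided among the classes. Of 34 listed genes, 25 were in the table. Of these, 9 were highest in Müller glia and 5 in rods. Over the 13393 genes with at least 10 counts, 19.4% and 23.6% were highest there. Cones were highest for 5 of the 25, amacrine cells for 3, bipolar cells for 2 and ganglion cells for 1. In Müller glia, Rrh, which encodes the pigment epithelium opsin peropsin, had 378 CPM and 93.1% of its summed CPM, Aldh1a1, a retinoic acid synthesis enzyme, 235 CPM and 94.2%, and Cyp26a1, which degrades retinoic acid, 56.6 CPM and 89.1%.

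Photoreceptor genes of the pathway were highest in rods or cones. Rbp3, which encodes the interphotoreceptor retinoid-binding protein, had 106 CPM in cones and 71.3 in rods. Rdh8, the outer-segment retinol dehydrogenase, had 19.1 CPM in rods and 16.6 in cones. Dhrs3, a retinal reductase, had 85.2 CPM in rods, 15.7 in Müller glia, 14.5 in bipolar cells and 7.25 in cones. Crabp1 and Crabp2, which bind retinoic acid, were highest in amacrine cells, at 400 and 15.5 CPM. Rdh14 differed least over the classes, from 82.0 CPM in Müller glia to 118 in cones. Of the 15 listed pigment epithelium genes in the table that are not among the 9, 11 were highest in Müller glia, among them the lactate transporter Slc16a8 (165 CPM) and the potassium channel Kcnj13 (74.0 CPM). Krt18 was highest in cones (492 CPM), and Mitf, Serpinf1 and Best1 in ganglion cells. Best1 had 10 counts there (2.85 CPM, 1.37 to 5.24), and its interval overlapped that of amacrine cells (2.16 CPM, 1.76 to 2.61).

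**Figure D3:**
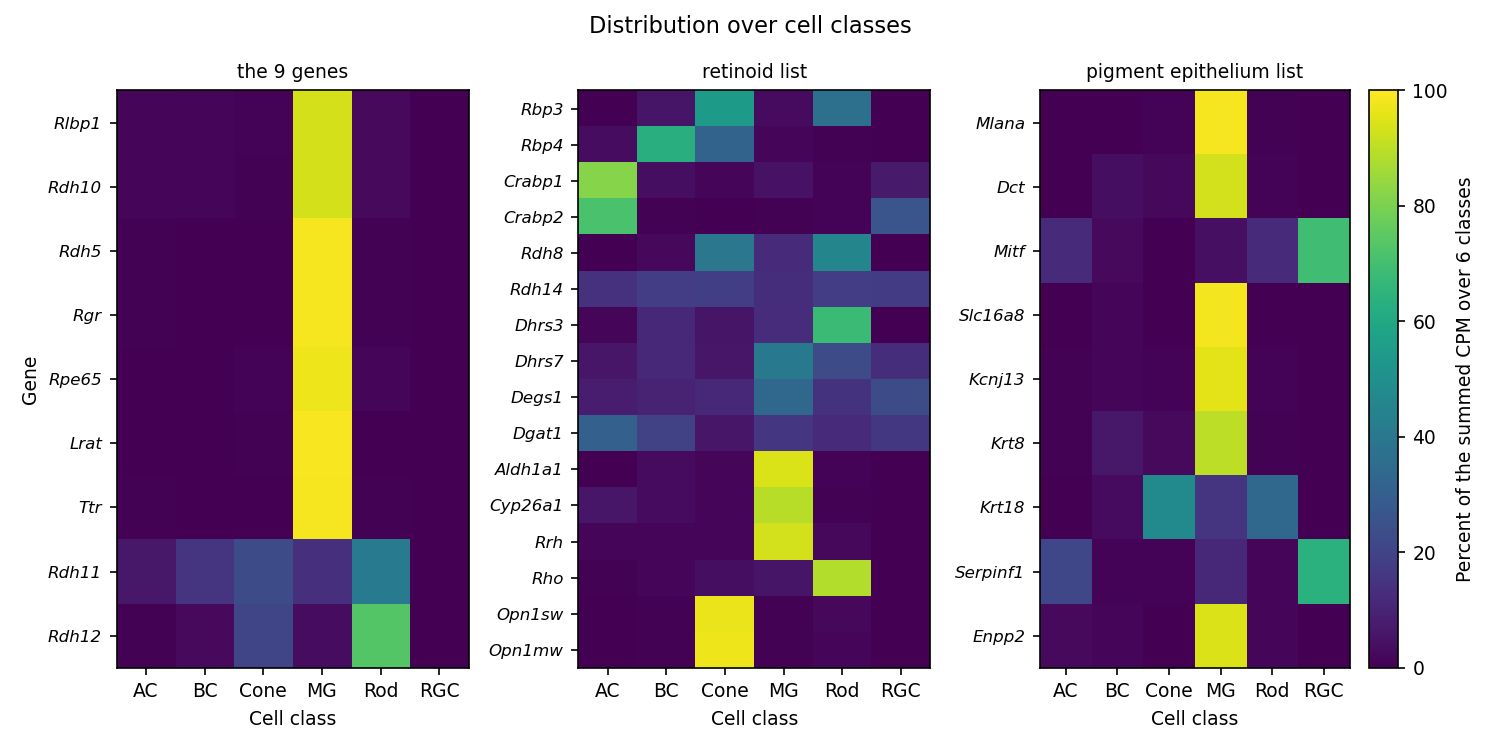
Percentage of the summed CPM in each of the 6 classes for the 9 genes, and for retinoid and pigment epithelium genes of the lists that are shown here, each with at least 10 CPM in any class. The 7 upper rows of the left panel have 93.6% to 99.0% in Müller glia (MG). AC, amacrine cells; BC, bipolar cells; RGC, ganglion cells.

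The genes most like each of the 9 were taken as those with the smallest difference in distribution over the 6 classes, among 9868 genes with at least 100 counts. For Rlbp1 they were Cmtm5 (0.606% of the summed CPM apart), Pcsk5 (0.728%) and S100a11 (0.742%), and for Rdh10 they were Pcsk5 (0.452%), the lipid carrier gene Apoe (0.739%) and Cd9 (0.912%). For Rdh5, Rgr and Ttr the 3 were the same in each case: Pon1, at 0.380%, 0.204% and 0.100%, the melanosome gene Mlana and the smooth muscle actin gene Acta2. Lrat was nearest to Mlana (0.571%), Gsta1 and Acta2, and Rpe65 to Napsa, Ggt1 and Gja4 (1.05% to 1.08%). Rdh12 was nearest to Pifo (2.04%) and Sec14l2 (2.87%), and Rdh11 to Lactb (1.81%), Fbxo36 and Vps33a. With 6 points per gene, these distances are descriptions.

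The 9 genes had 24 isoforms with 123011 counts. Of these isoforms, 12 (50%, exact 95% interval 29.1 to 70.9%) did not carry an Ensembl transcript identifier, against 60.3% over all Ensembl genes, and they held 3.94% of the counts of the 9 genes. A transcript model was available for 20 of the 24. The models used 62 distinct introns, of which 60 are in GENCODE M21. The remaining 2 were the junctions of an Rdh5 isoform without exons 2 and 3 and of an Rdh12 isoform without exon 2.

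Lrat, Rdh10 and Ttr had 1 isoform each. For the other 6 genes the most abundant isoform was compared between every pair of columns that each held 20 counts or more. A different leading isoform with a gap of 50 percentage points in its share was found in none of the 6, while 25% of the 7317 genes that could be compared had one (1828 genes). Rdh5 came closest, with another leading isoform in amacrine cells and a gap of 37.8 percentage points to Müller glia. A different leading isoform with a gap of at least 25 percentage points was found in 1 of the 6, Rdh5, and in 38.4% of the 7317 genes.

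**Figure D4:**
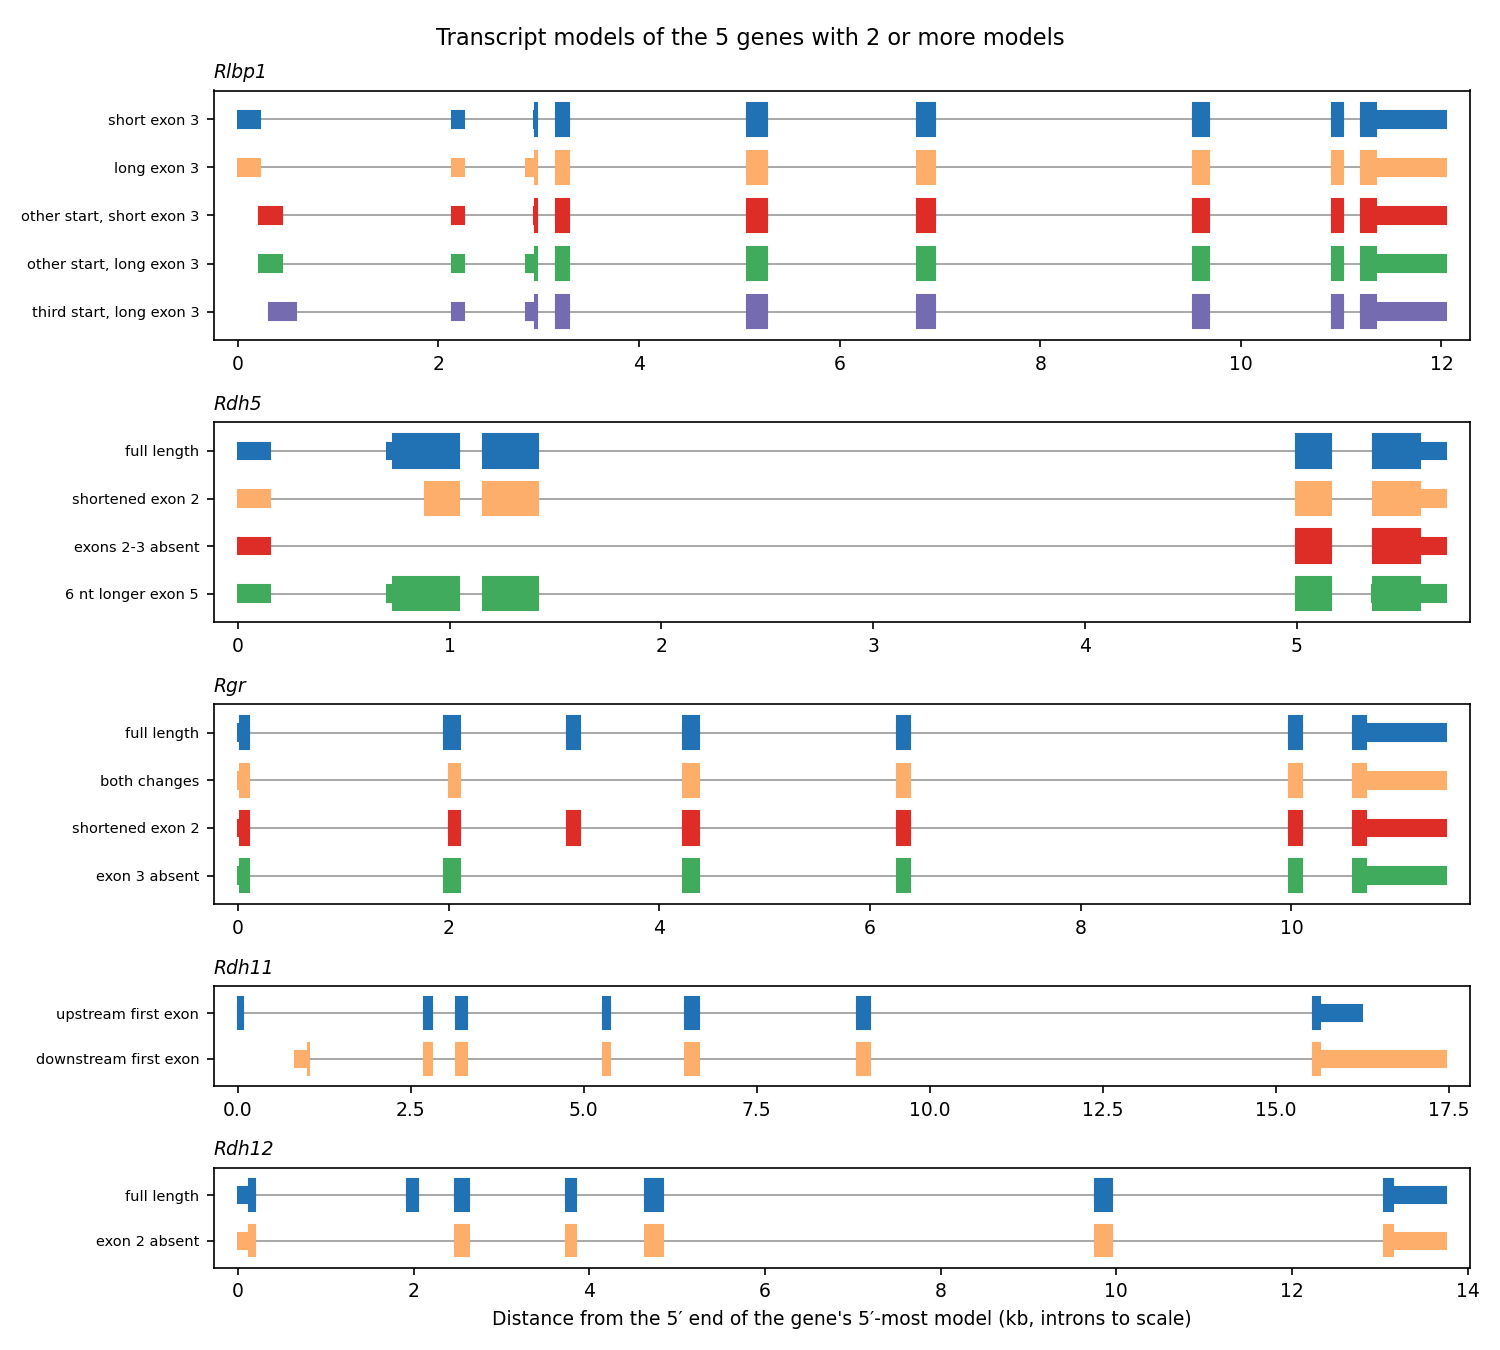
Transcript models of the 5 genes with 2 or more models, drawn to scale from the 5′ end of the gene's 5′-most model, in kb. Tall blocks mark coding bases of the annotated transcript with the same introns where it is protein-coding, otherwise of the gene's most abundant annotated transcript; low blocks are other exonic bases. Rdh5, Rgr and Rdh12 have models that lack some of the coding exons. Rlbp1 models differ before the coding sequence, and Rdh11 models differ in the first exon.

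**Figure D5:**
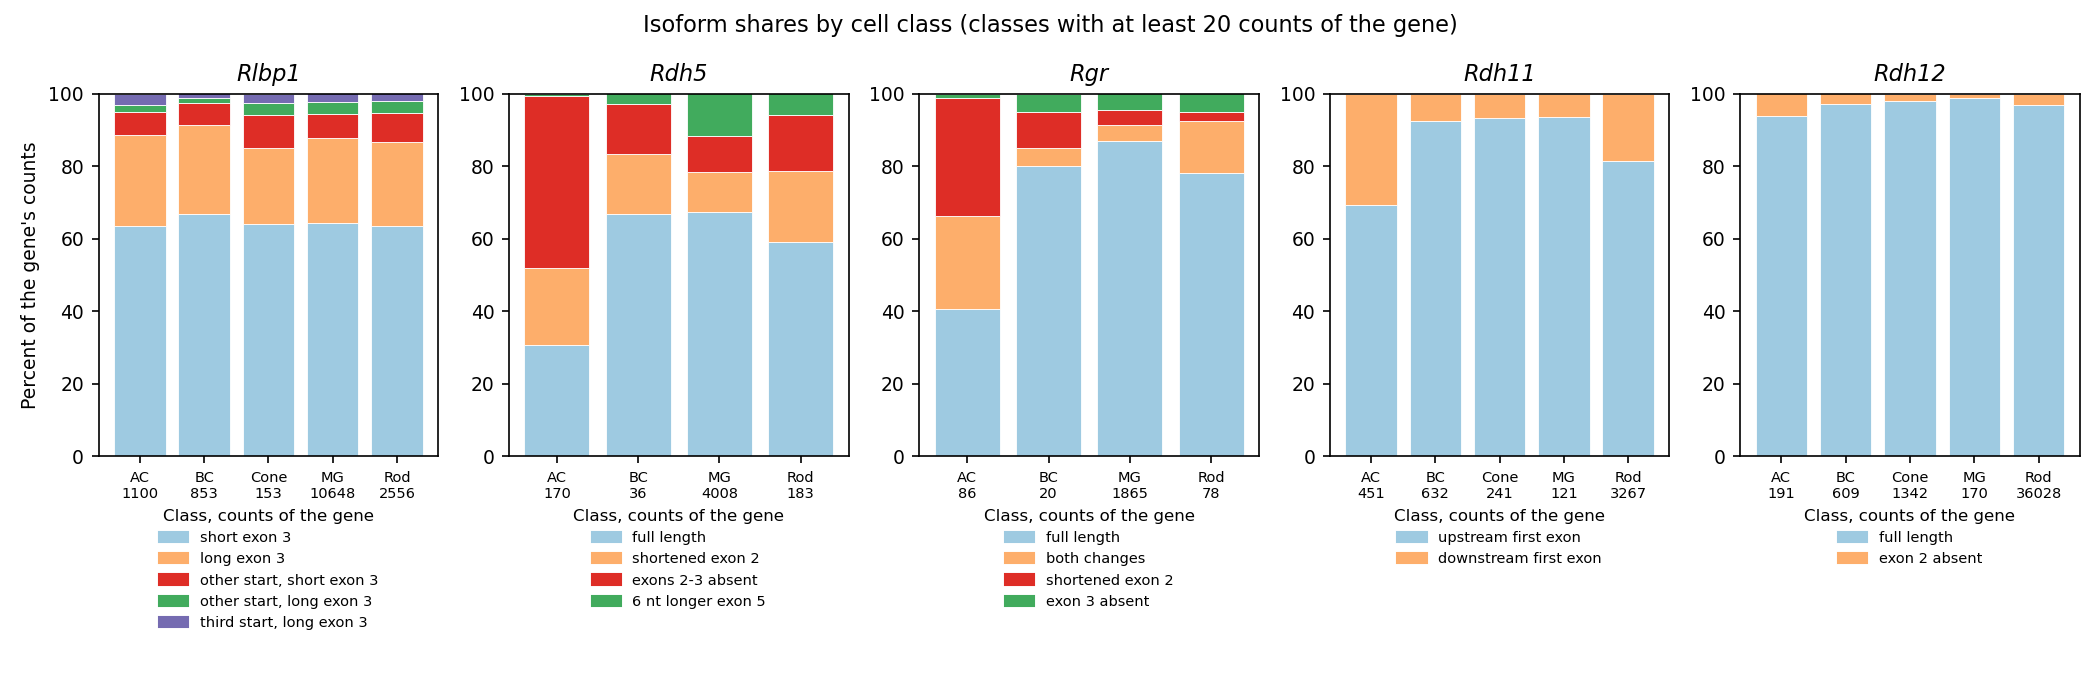
Percentage of each gene's counts by isoform, shown where a class held 20 or more, with their number under each bar. Rlbp1 has nearly equal bars in 5 classes, while the full-length isoform makes up 30.6% and 40.7% of the amacrine (AC) bars of Rdh5 and Rgr.

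All 5 Rlbp1 isoforms contained the whole annotated coding sequence of 951 bases and differed upstream of it. The most abundant, ENSMUST00000179243.2, held 9836 of 15310 counts, and ENSMUST00000053718.14, whose exon 3 starts 82 bases earlier in the transcript, held 3598. The other 3 used annotated introns in other combinations and held 1037, 494 and 345 counts. The first 2 of them had a first exon that started 208 bases and ended 219 bases further downstream. The last had another first exon. The leading isoform had 64.3% of the counts in Müller glia (63.4 to 65.2%), 63.4% in rods (61.5 to 65.3%), 66.8% in bipolar cells (63.5 to 70.0%), 63.4% in amacrine cells (60.4 to 66.2%) and 64.1% in cones (55.9 to 71.6%). Over these 5 classes no isoform share of Rlbp1 ranged by more than 4.18 percentage points, although the level ranged from 20.9 to 1736 CPM.

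Rdh5 had 4 isoforms. ENSMUST00000026406.13, which encodes 318 codons, held 2703 of 4008 counts in Müller glia (67.4%, 66.0 to 68.9%). An isoform whose exon 2 lacks its first 180 bases, and with them the annotated start codon, held 11.0% there (10.1 to 12%). From the next annotated start codon its reading frame was open for 248 codons to the annotated stop. An isoform with only exons 1, 4 and 5 held 9.88% (8.97 to 10.9%), and it kept 385 of the 954 coding bases without the annotated start codon. The last had 6 more bases at the start of exon 5 and held 11.7% (10.7 to 12.7%). Those bases, at chr10:128913937-128913942 on the minus strand of GRCm38, keep the reading frame and extend it to 320 codons. They are shown in capitals between the 20 bases on either side, since this is the only isoform of the gene that adds coding sequence:
Rdh5 exon 5 start: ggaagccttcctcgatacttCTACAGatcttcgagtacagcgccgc

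Amacrine cells differed from Müller glia in the Rdh5 isoforms. The exon 1, 4 and 5 isoform held 81 of 170 counts in amacrine cells (47.6%, 39.9 to 55.4%), and 15.3% in rods (10.4 to 21.3%) and 13.9% in bipolar cells (4.67 to 29.5%). ENSMUST00000026406.13 held 30.6% in amacrine cells (23.8 to 38.1%) and 59.0% in rods (51.5 to 66.2%). The isoform with 6 more bases had 1 count in amacrine cells and 468 in Müller glia. Rods differed from Müller glia in single isoforms too. There the isoform with 6 more bases held 6.01% (3.04 to 10.5%), below its Müller glia interval. The one with the shortened exon 2 held 19.7% in rods (14.2 to 26.2%), above its Müller glia interval, and 21.2% in amacrine cells (15.3 to 28.1%). The Rdh5 level in amacrine cells was 0.539% of that in Müller glia, and whether counts are reads or molecules is not given in the sources used here.

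Rgr had 4 isoforms made from 2 splicing changes near the 5′ end. The full-length ENSMUST00000022338.6, of 291 codons, held 1623 of 1865 counts in Müller glia (87.0%, 85.4 to 88.5%). One change removes exon 3, of 122 bases (chr14:37045705-37045826, minus strand), and the other moves the start of exon 2 by 50 bases (chr14:37046948-37046997, minus strand). Neither length is a multiple of 3. The bases that are left out are in capitals, with 20 bases of the neighbouring exons on each side:
Rgr exon 3: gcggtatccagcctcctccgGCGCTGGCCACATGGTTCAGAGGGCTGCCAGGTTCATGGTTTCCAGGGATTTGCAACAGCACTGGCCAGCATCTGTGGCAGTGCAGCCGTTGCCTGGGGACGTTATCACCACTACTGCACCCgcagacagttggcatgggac
Rgr exon 2 start: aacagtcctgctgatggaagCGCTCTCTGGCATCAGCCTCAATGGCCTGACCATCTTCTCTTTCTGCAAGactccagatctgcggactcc

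From the annotated start codon, the reading frame of Rgr ended after 136 codons with the shortened exon 2, after 112 codons without exon 3 and after 89 codons with both changes. The stop codons lay 283, 283 and 302 bases before the last exon junction, and M21 classes the transcript with both changes, ENSMUST00000225229.1, as a target of nonsense-mediated decay, the pathway that degrades transcripts with early stop codons. In Müller glia the 3 altered isoforms held 4.02%, 4.56% and 4.40%. In amacrine cells the shortened exon 2 held 28 of 86 counts (32.6%, 22.8 to 43.5%), both changes held 22 (25.6%, 16.8 to 36.1%), and the full-length isoform held 35 (40.7%, 30.2 to 51.8%). In rods the full-length isoform held 61 of 78 counts (78.2%, 67.4 to 86.8%). The isoform with both changes held 14.1% in rods (7.26 to 23.8%), above its Müller glia interval (3.51 to 5.43%). As for Rdh5, the amacrine column thus held a larger part of altered isoforms than Müller glia by more than the counting intervals. The Rgr level there was 0.586% of the Müller glia level. In rods the full-length intervals of Rdh5 and Rgr overlapped those of Müller glia, while those of some single altered isoforms did not.

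Rdh12 had a full-length isoform of 316 codons, ENSMUST00000021548.11-1, with 34876 of 36028 counts in rods, and an isoform without exon 2 with 1152 (3.20%, 3.02 to 3.38%). The exon has 119 bases (chr12:79210841-79210959, plus strand), not a multiple of 3, and without it the reading frame stopped after 40 codons, 606 bases before the last exon junction. The exon is in capitals between the ends of exons 1 and 3, which the isoform joins:
Rdh12 exon 2: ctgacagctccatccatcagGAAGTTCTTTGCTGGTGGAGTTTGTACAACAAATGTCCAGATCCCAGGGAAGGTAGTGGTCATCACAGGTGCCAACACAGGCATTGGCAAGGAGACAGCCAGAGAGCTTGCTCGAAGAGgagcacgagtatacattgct

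The share without exon 2 was 1.94% in cones (1.27 to 2.83%), 2.96% in bipolar cells (1.76 to 4.63%), 6.28% in amacrine cells (3.29 to 10.7%) and 1.18% in Müller glia (0.143 to 4.19%). The rod and cone intervals did not overlap. The amacrine interval, from 12 of 191 counts, lay above that of cones and overlapped that of rods.

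Rdh11 had 2 isoforms that start at different first exons, each with its own start codon, 1005 bases apart. ENSMUST00000161204.7 starts upstream and has 316 codons, and ENSMUST00000085254.6-1 starts downstream and has 300. The models also differed at the 3′ end, where the upstream one ended 1214 bases before the annotated end. The coding bases of the 2 first exons (chr12:79191726-79191790 and chr12:79190769-79190785, minus strand) are in capitals, followed by the first 20 bases of the shared exon 2:
Rdh11 upstream first exon: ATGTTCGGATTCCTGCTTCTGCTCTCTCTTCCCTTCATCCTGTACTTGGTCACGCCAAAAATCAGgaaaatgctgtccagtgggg
Rdh11 downstream first exon: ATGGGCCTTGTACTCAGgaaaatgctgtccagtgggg

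The downstream first exon was used most in amacrine cells, with 138 of 451 counts (30.6%, 26.4 to 35.1%), and next in rods, with 610 of 3267 (18.7%, 17.3 to 20.1%). It held 7.59% in bipolar cells (5.65 to 9.94%), 6.64% in cones (3.84 to 10.6%) and 6.61% in Müller glia (2.90 to 12.6%), which were not separated from each other. The intervals of amacrine cells and rods overlapped neither each other nor those of the other 3 classes. In level, the downstream isoform was highest in rods, at 11.0 CPM, with 2.86 CPM in amacrine cells, 2.19 in cones, 1.65 in bipolar cells and 1.30 in Müller glia.

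Both Rdh11 starts have a RefSeq promoter, and the 250 bases before each are shown because the share of the 2 starts differed between classes (GRCm38.p6, chr12:79191856-79192105 and chr12:79190962-79191211, minus strand). Capitals mark matches to CACGTG, the E-box palindrome. The downstream promoter had 2, starting 230 and 182 bases before the RefSeq start, and the upstream promoter had 0. Of 32851 RefSeq promoter windows of the same length, 6.02% held this motif:
Rdh11 upstream promoter: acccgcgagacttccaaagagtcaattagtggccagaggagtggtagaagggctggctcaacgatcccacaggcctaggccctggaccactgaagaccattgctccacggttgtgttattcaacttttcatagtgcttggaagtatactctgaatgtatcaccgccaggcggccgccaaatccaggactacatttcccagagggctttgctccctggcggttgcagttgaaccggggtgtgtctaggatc
Rdh11 downstream promoter: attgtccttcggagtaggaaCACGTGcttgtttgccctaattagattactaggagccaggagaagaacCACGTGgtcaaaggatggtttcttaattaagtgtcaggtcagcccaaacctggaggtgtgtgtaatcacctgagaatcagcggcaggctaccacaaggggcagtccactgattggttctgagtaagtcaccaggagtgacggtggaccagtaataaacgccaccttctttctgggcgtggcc

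Promoter windows were matched for 7 of the genes (Lrat, Rpe65, Rlbp1, Rdh5, Rdh11, Rdh12 and Rgr). They were searched on both strands for TAATCC, the core bound by the photoreceptor and pigment epithelium factors CRX and OTX2, and, besides the E-box above, for a second E-box, CAGCTG. The first of these was in the windows of Rgr and Rpe65, 167 and 42 bases before the start, and in 6.25% of all windows. The second E-box was in those of Rdh5 and Rpe65, 197 and 90 bases before the start, and in 13.0% of all windows. The windows of Rlbp1, Lrat and Rdh12 held none of the 3. The Rgr and Rpe65 windows are shown as the 2 with TAATCC (chr14:37049015-37049264, minus strand, and chr3:159598931-159599180, plus strand), with every match in capitals, GGATTA being the reverse complement:
Rgr promoter: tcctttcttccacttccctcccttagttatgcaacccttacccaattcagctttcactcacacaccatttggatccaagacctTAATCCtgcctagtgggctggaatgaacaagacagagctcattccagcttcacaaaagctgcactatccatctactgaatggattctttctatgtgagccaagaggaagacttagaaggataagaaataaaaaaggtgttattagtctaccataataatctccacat
Rpe65 promoter: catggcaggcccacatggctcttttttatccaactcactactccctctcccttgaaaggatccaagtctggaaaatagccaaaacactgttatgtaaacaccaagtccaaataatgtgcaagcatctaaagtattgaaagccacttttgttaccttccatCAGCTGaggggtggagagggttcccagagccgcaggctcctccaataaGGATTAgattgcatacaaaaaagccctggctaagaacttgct

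The other genes had few or no alternative isoforms. Rpe65 had 368 of its 413 counts in ENSMUST00000196999.4, a 15-exon model with the whole coding sequence of 533 codons. Its other 3 isoforms had 24, 11 and 10 counts, all in Müller glia, and no model. The Rdh10 model kept the 5 annotated introns but ended 7 bases before the end of the coding sequence and 2327 bases before the annotated 3′ end. The Ttr model kept the 3 annotated introns and all 441 coding bases, and Lrat had no model.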

How the data were processed

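Long reads of single-cell cDNA from mouse retina were analysed from a table in which the authors deposited whole-number counts per isoform in 6 cell class columns, with no library named. Transcript models with FLAIR as their source, per the file contents, were on build mm10, per the submitters' processing notes; coordinates are given on GRCm38, the same assembly, with GENCODE M21. How reads were collapsed to molecules, cells typed, doublets treated and isoforms filtered is not given in the sources used here.

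Of 13452 Ensembl genes, 13448 had a symbol. Counts were scaled to 1000000 per column (CPM) with Python 3.11.15, pandas 2.3.3 and SciPy 1.17.1. Levels carry exact Poisson and shares exact Clopper-Pearson 95% intervals; like the limit of 3 counts for a 0, they take account of counting error alone, and counts of 1 molecule read more than once are not independent. Reading frames were followed through M21 transcript sequences. The rules for restriction (10 counts, 80%) and switches (20 counts, 50 percentage points) were tested on simulated data. Alternatives were scaling by trimmed means (TMM) or by median of ratios, other thresholds, annotated isoforms only and summed introns.

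The 9 genes and the lists were chosen with earlier results of these data known. Named were all 9 genes, isoforms with 10% of a gene in a class or the most abundant unannotated one, the 3 nearest genes, and listed genes with 10 CPM; other isoforms of the 9 genes, and Best1, were added after their values were seen. Some genes that these rules name are not reported here. The 4 libraries could not be compared.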

Additional observations from a re-analysis of the deposited data

How the results depend on the processing

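Of 17 comparisons of a count over the 9 genes with an alternative, 15 stayed within 1.5-fold or counting error and 2 moved. With a minimum difference of 25 percentage points, 1 gene, Rdh5, had a different leading isoform (amacrine cells against bipolar cells, Müller glia and rods), as had 38.4% of the genes compared. Weighted by counts, the unannotated share was 3.94%. The 7 genes restricted to Müller glia were also restricted under both other scalings, without the ganglion cell column and at other minimums; at a share of 95% there were 5, without Rlbp1 and Rdh10. Of 36 alternatives for the share of 1 gene in its highest class, 29 stayed within counting error, 7 moved and 0 changed the class; Rdh12 moved most, to 69.7% in rods by median of ratios. Of the 27 pairings of 1 of the 9 genes with a nearest gene, 24 were also found after scaling by a trimmed mean. No paired analysis was possible because a class column names neither library nor replicate, and so no replicate could be left out. Depth limits shares in classes with few counts, such as the 20 of Rgr in bipolar cells.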
